A study of Drosophila melanogaster with 4 samples.

Results

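Respiratory complex I is the NADH:ubiquinone oxidoreductase of the inner mitochondrial membrane, the main entry point of electrons from NADH into the respiratory chain. It passes them through a flavin and a row of iron-sulphur clusters to ubiquinone and pumps protons as it does so. The core subunits carry out this chemistry and have counterparts in bacteria, whereas the accessory subunits surround the core and serve assembly, stability and regulation. In flies most of the subunits are encoded in the nucleus and the flight muscle is among the tissues richest in the complex. The genes described here are those whose platform symbol begins with ND- and whose probe set, the group of oligonucleotides that reads a transcript on an Affymetrix array, names that gene alone. There were 31 such genes among 10844 genes measured in this way, each read by its brightest probe set. All 31 carry a name beginning with NDUF among their RefSeq synonyms, which for the 26 that are not paralogs is the name of the human subunit. They fall into 3 nuclear core subunits, 23 accessory subunits and 5 paralogs, which are duplicate genes named after a subunit with the ending L, L1 or L2. Duplicates of respiratory genes in Drosophila are known mainly from the testis. The core subunits ND-24, ND-49, ND-30 and ND-23, that is 4 of 7 nuclear core subunits, and ND-13B, ND-B15, ND-AGGG, ND-MLRQ and ND-49L had no such probe set and were not analysed here.

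Whole adult females of the y, w strain, which carries marker mutations for body and eye colour, were frozen 12 hours after they had received juvenile hormone III (JH III) dissolved in acetone, or acetone alone. JH III is an insect hormone made in the corpora allata. Each fly received 0.1 µl, with JH III at 187 mM in the JH III group, and all flies of both groups had been kept without yeast for the 5 days since eclosion. There were 2 JH III samples and 2 acetone samples, each of 30 pooled females on 1 array, so that every comparison rests on 2 arrays against 2.

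The 4 arrays were not alike. The signal of GAPDH at the 3′ end of the transcript was 2.32 and 5.75 times that at the 5′ end on the JH III arrays, against 15.5 and 10.2 times on the acetone arrays. For actin the ratio was 3.40 and 16.7 on the JH III arrays, against 35.6 and 14.2 on the acetone arrays, so that JH III replicate 2 lay above acetone replicate 2. The 9 bacterial controls added to the labelled samples had a median signal of 32593 and 13427 on the JH III arrays, against 4425 and 11755 on the acetone arrays. Acetone replicate 1 came from a different chip lot than the other arrays. Across all 10474 probe sets tested the median log2 difference was 0.10, but it was -0.28 in the brightest 10% of probe sets, where 24 of the 26 core and accessory subunits lie. Transcripts of females were present, with signals of 19111 and 34658 for the yolk protein gene Yp1 on the JH III arrays, against 37797 and 25426 on the acetone arrays.

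Every measured core and accessory subunit had a lower mean level in JH III females than in acetone females, although no single subunit passed the test over all genes. All 26 log2 differences (JH III minus acetone, of log2(signal + 82.8), a scale that understates the differences of dim genes) were below 0, with a median of -0.66 and a range of -1.32 to -0.22. The mean JH III signal was between 37.5% and 85.5% of the mean acetone signal. In 21 of the 26 both JH III arrays lay below both acetone arrays, and in 0 above. Among all probe sets tested 15.3% were lower and 22.2% higher without overlap, and 43.9% had a difference below 0. In the brightest 10% the shares lower without overlap and below 0 were 34.9% and 72.9%. The number of 26 is a count of genes read on the same 4 arrays, not of independent observations. In whole bodies fewer cells rich in mitochondria and less transcript per cell cannot be told apart.

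**Figure D1:**
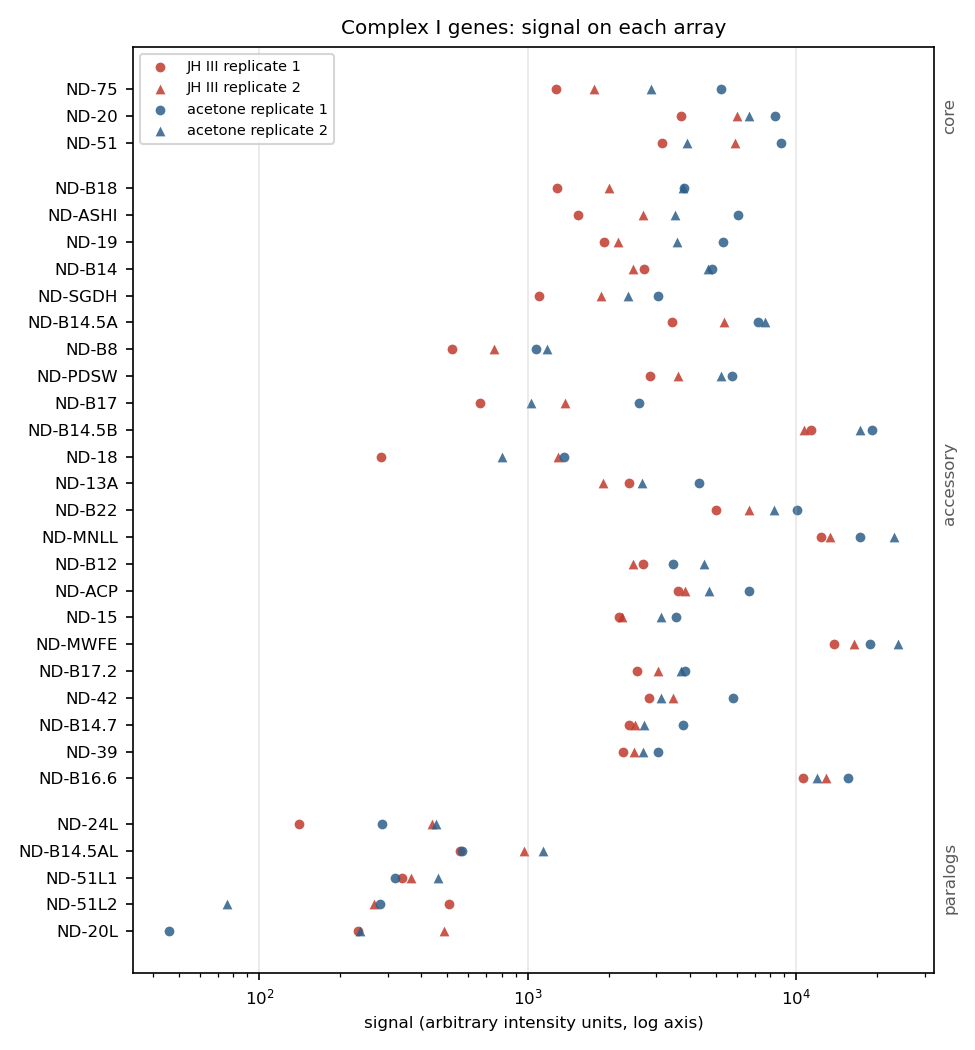
Signal of each of the 31 complex I genes on each array (horizontal log axis, arbitrary intensity units; red JH III, blue acetone; circles replicate 1, triangles replicate 2). In 21 of the 26 core and accessory subunits both red points lie left of both blue points, and the 5 paralogs at the bottom overlap between treatments.

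By limma's moderated test, with p-values adjusted by Benjamini-Hochberg across the 10474 probe sets tested, 0 of the 31 genes passed an adjusted p of 0.05, where 0.162% of all probe sets did. Of those 17 probe sets 14 were lower (0.134% of all) and 3 higher (0.0286%). At an unadjusted limma p under 0.05, 8 of the 31 were lower and 0 higher, all 8 among the 26 subunits. The same rule took in 3.75% of all probe sets as lower and 3.54% as higher, and 13.9% of the brightest 10% as lower. By the t-test that the labels name, 0 of the 31 passed after adjustment. By the same t-test 3 were lower at an unadjusted p under 0.05, where 2.32% of all probe sets were.

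The core subunits measured here all belong to the arm of the complex that reaches into the matrix, where NADH is oxidised. ND-75 (NDUFS1) is the large subunit that holds several of the iron-sulphur clusters. Its signal was 1276 and 1759 on the JH III arrays, against 5217 and 2869 on the acetone arrays. The groups did not overlap, and the acetone arrays differed from each other more than the JH III arrays did. With 37.5% of the acetone mean ND-75 had the largest difference of the 26 subunits, -1.32 ± 0.36 (SE, limma adjusted p = 0.149). Without acetone replicate 2 it was -1.74 and passed (limma adjusted p = 0.0203), and without JH III replicate 1 or acetone replicate 1 the difference was -1.10 or -0.90 and did not.

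ND-51 (NDUFV1) binds the flavin and takes the electrons from NADH. Its signal was 3158 and 5879 on the JH III arrays, against 8724 and 3916 on the acetone arrays. JH III replicate 2 lay above acetone replicate 2, and the difference of -0.43 ± 0.37 (SE, limma adjusted p = 0.826) was 0.01 without JH III replicate 1 and 0.14 without acetone replicate 1. ND-20 (NDUFS7) holds the last cluster before ubiquinone. It had 3718 and 6001 on the JH III arrays, against 8290 and 6664 on the acetone arrays. The groups did not overlap, and the difference was -0.64 ± 0.35 (SE, limma adjusted p = 0.747). All 3 core genes were lowest on JH III replicate 1 and highest on acetone replicate 1.

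Of the 23 accessory subunits 23 had a difference below 0, 19 did not overlap between treatments and 7 had an unadjusted limma p under 0.05. The difference farthest below 0 was that of ND-B18 (NDUFB7), a membrane-arm subunit. ND-B18 had 1278 and 2003 on the JH III arrays, against 3824 and 3770 on the acetone arrays. Its acetone arrays lay close together and well above both JH III arrays, and the difference was -1.20 ± 0.36 (SE, limma adjusted p = 0.234). ND-ASHI (NDUFB8), also of the membrane arm, had 1535 and 2678 on the JH III arrays, against 6070 and 3514 on the acetone arrays (-1.15 ± 0.36 SE, limma adjusted p = 0.304). ND-19 (NDUFA8), which lies on the side of the membrane facing the intermembrane space, had 1914 and 2170 on the JH III arrays, against 5321 and 3593 on the acetone arrays (-1.07 ± 0.35 SE, limma adjusted p = 0.327). In both genes acetone replicate 1 stood highest, and the JH III arrays differed from each other by less than they did from acetone replicate 2 in ND-19 but not in ND-ASHI.

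Another 4 accessory subunits had an unadjusted limma p under 0.05. ND-B14 (NDUFA6) of the matrix arm had the most even replicates of these, with 2700 and 2467 on the JH III arrays, against 4859 and 4676 on the acetone arrays. Its difference was -0.86 ± 0.35 (SE, limma adjusted p = 0.558), and leaving out single arrays moved it between -0.93 and -0.80. The scaling moved it more, to -0.51 after quantile normalization and -1.10 after median centring. ND-SGDH (NDUFB5), a membrane-arm subunit, had 1098 and 1871 on the JH III arrays, against 3042 and 2360 on the acetone arrays (-0.86). The remaining members of this set were ND-B14.5A (NDUFA7) of the matrix arm and ND-PDSW (NDUFB10) of the membrane arm. ND-B14.5A had 3448 and 5394 on the JH III arrays, against 7204 and 7659 on the acetone arrays (-0.77). ND-PDSW had 2838 and 3612 on the JH III arrays, against 5768 and 5229 on the acetone arrays (-0.76). In all 4 the treatments did not overlap, and the limma adjusted p lay between 0.558 and 0.636.

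**Figure D2:**
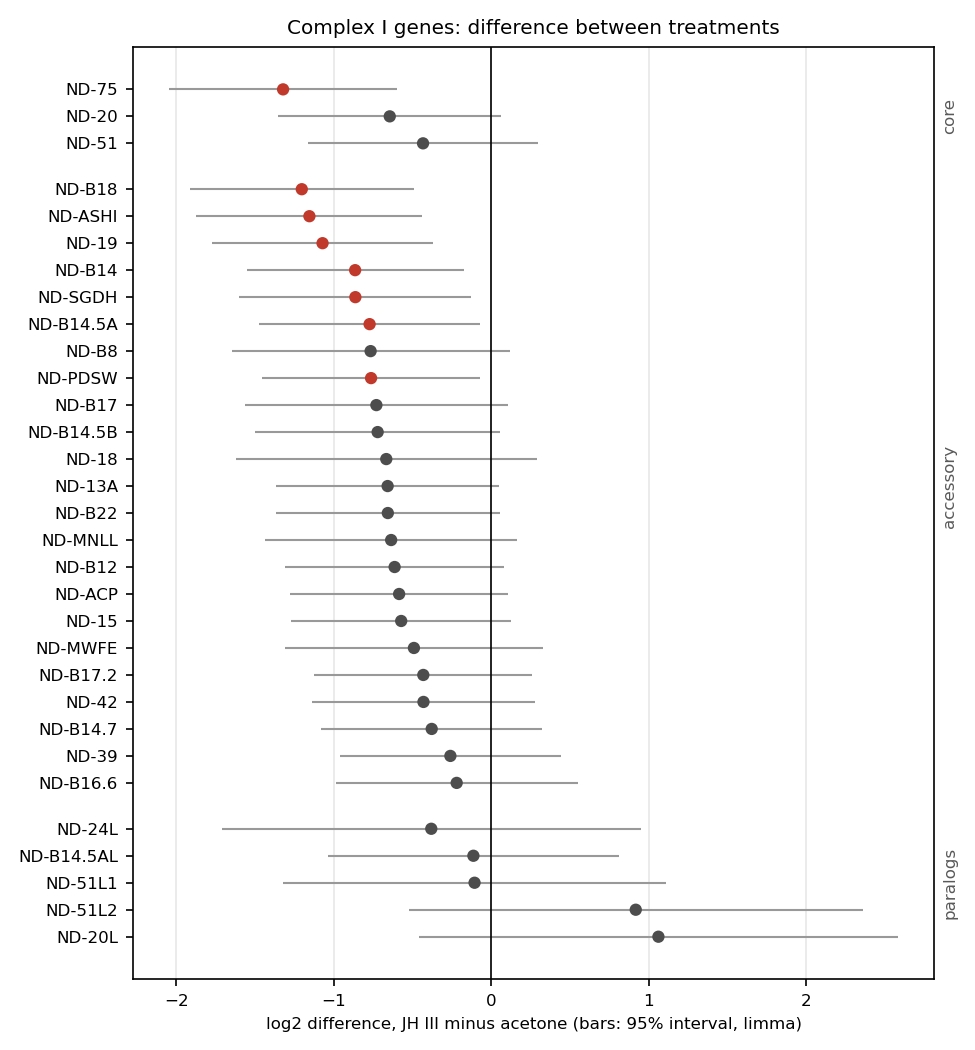
Log2 difference (JH III minus acetone) of each gene with its 95% interval from limma; red points have an unadjusted p under 0.05. The points of all 26 core and accessory subunits lie left of 0, the intervals of 8 exclude it, and those of all 5 paralogs include it.

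The other 16 accessory subunits had 56.1% to 85.5% of the acetone mean in JH III females and standard errors of 0.35 to 0.48. The dimmest was ND-B8 (NDUFA2) of the matrix arm, with 523 and 750 on the JH III arrays, against 1075 and 1177 on the acetone arrays (-0.77 ± 0.44 SE, limma adjusted p = 0.760). The brightest was ND-MWFE (NDUFA1), a small membrane-arm subunit, with 13847 and 16362 on the JH III arrays, against 18794 and 23879 on the acetone arrays (-0.49 ± 0.41 SE, limma adjusted p = 0.825). Neither overlapped between treatments, so that a lower JH III level was found at both ends of the signal range. After quantile normalization the difference of ND-MWFE was -0.0025.

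Overlap between treatments was found for ND-51 and 4 accessory subunits, ND-B17, ND-18, ND-42 and ND-B16.6. In each of these JH III replicate 2 lay above acetone replicate 2 and below acetone replicate 1. ND-18 (NDUFS4) had 284 and 1296 on the JH III arrays, against 1360 and 801 on the acetone arrays, and its value on JH III replicate 1 was below the level of unspiked control probe sets there (369). The difference of ND-18 was 0.29 without JH III replicate 1. ND-B16.6 (NDUFA13) had the smallest difference of the 26, -0.22 ± 0.39 (SE, limma adjusted p = 0.924), with 10556 and 12906 on the JH III arrays, against 15550 and 11895 on the acetone arrays.

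ND-MNLL (NDUFB1) was the only member with more than 1 probe set. The brighter, which counts here, had 12311 and 13297 on the JH III arrays, against 17267 and 22981 on the acetone arrays (-0.64 ± 0.40 SE, limma adjusted p = 0.767). The dimmer had 2687 and 4359 on the JH III arrays, against 9718 and 9187 on the acetone arrays. Its difference was -1.44 ± 0.35 (SE, limma adjusted p = 0.0646). Both probe sets were lower without overlap, by unequal amounts.

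Core and accessory subunits had medians that differed by less than the spread between arrays. The median log2 difference was -0.64 over the 3 core subunits and -0.66 over the 23 accessory subunits. The core minus accessory difference of medians was 0.01, while the core minus accessory difference of median levels varied between replicates with an SD of 0.57. Its sign depended on the arrays. It was -0.57 for JH III replicate 1 minus acetone replicate 1, -0.09 for JH III replicate 1 minus acetone replicate 2, 0.08 for JH III replicate 2 minus acetone replicate 1 and 0.31 for JH III replicate 2 minus acetone replicate 2. With 3 core genes, of which ND-75 had -1.32 and ND-51 -0.43, a difference between the classes could not be resolved here, and none was tested. Within the accessory class, the 7 subunits of the matrix arm had a median of -0.67 and the 15 of the membrane arm a median of -0.66.

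**Figure D3:**
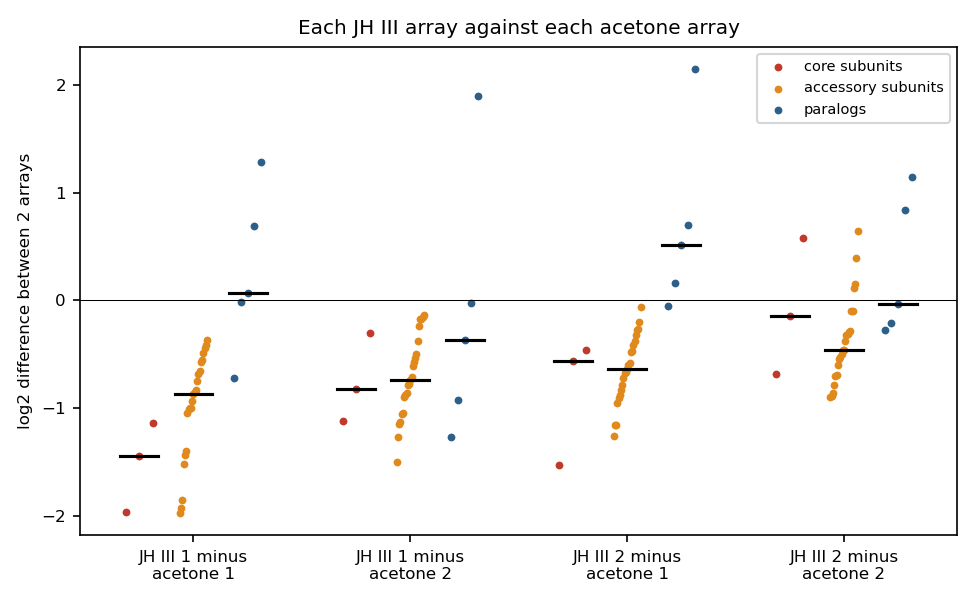
Log2 difference of every core subunit (red), accessory subunit (orange) and paralog (blue) for each JH III array minus each acetone array; black bars are medians. The accessory median is -0.87, -0.74, -0.64 and -0.46 from left to right, and the core median, of 3 genes, -1.44, -0.83, -0.56 and -0.15.

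The probe sets of the paralogs were dim, and their values overlapped between treatments. Their mean signals were 251 to 808, against 881 to 18220 for the core and accessory subunits, and only ND-B14.5AL exceeded the level of unspiked controls (369 and 240 on the JH III arrays, 139 and 295 on the acetone arrays) on all 4 arrays. In 0 of the 5 did the treatments not overlap, and 0 had an unadjusted limma p under 0.05. ND-20L, named after ND-20, had 232 and 488 on the JH III arrays, against 46.1 and 237 on the acetone arrays. ND-51L2, named after ND-51, had 506 and 267 on the JH III arrays, against 281 and 75.7 on the acetone arrays. Both had positive differences, 1.06 ± 0.76 and 0.92 ± 0.72 (SE, limma adjusted p = 0.776 and 0.811), on dim values. ND-20L exceeded the control level only on JH III replicate 2, and ND-51L2 was below it on acetone replicate 2.

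The second paralog of ND-51, ND-51L1, had 339 and 368 on the JH III arrays, against 320 and 463 on the acetone arrays (-0.11 ± 0.61 SE). ND-24L, named after ND-24, had 140 and 441 on the JH III arrays, against 285 and 455 on the acetone arrays (-0.38 ± 0.67 SE). ND-B14.5AL had 560 and 970 on the JH III arrays, against 567 and 1135 on the acetone arrays (-0.11 ± 0.46 SE). In all 3 genes acetone replicate 2 was the highest array and the treatments overlapped, and the limma adjusted p was 0.924 or higher. A list of 13 testis genes, of which 11 were measured, had a summed signal of 4476 and 1923 on the JH III arrays, against 1687 and 2390 on the acetone arrays. Of these 11, dj, djl, ocn and Mst98Cb were not above the control level on any array.

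The summed signal of the 26 subunits was 98295 and 119043 on the JH III arrays, against 178602 and 158789 on the acetone arrays. The 4 arrays stood in the same order by the ratios of 3′ to 5′ signal of GAPDH and of eIF-4a. By the actin ratio the order differed, as JH III replicate 2 lay above acetone replicate 2. Acetone replicate 1 was the highest array for 21 of the 26 and JH III replicate 1 the lowest for 22. The gap between the replicates of a treatment was a median of 0.29 (JH III replicate 2 minus replicate 1) and 0.30 (acetone replicate 1 minus replicate 2), against -0.66 between treatments. The part of RNA quality and of the arrays in the result was not tested. With JH III replicate 1 left out the median of the 26 was -0.52, with 24 below 0. Among the 3 arrays of a single chip lot, that is without acetone replicate 1, it was -0.58, also with 24 below 0.

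**Figure D4:**
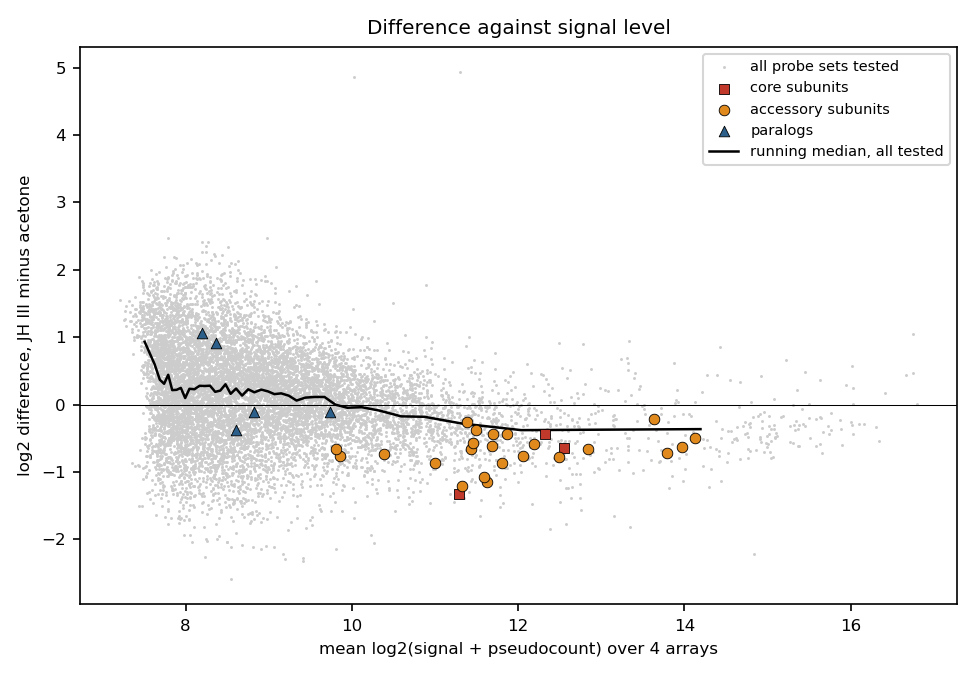
Log2 difference (JH III minus acetone) of all 10474 probe sets tested (grey) against their mean log2(signal + 82.8), with the complex I genes marked and the running median in black. The running median falls below 0 at high signal, where most subunits lie, and most subunits lie below it.

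The size of the difference varied with the scaling. After quantile normalization the median of the 26 subunits was -0.32, where that of the brightest 10% of probe sets was -0.03 and that of all probe sets 0.01. Then 24 of the 26 were below 0, with ND-39 (0.04) and ND-B16.6 (0.10) above 0. Of the 26, 13 were lower without overlap (18.2% of all probe sets). At an unadjusted limma p under 0.05, 4 were lower (3.42% of all probe sets). Centring each array on its median moved every difference by -0.24, so that the 26 had a median of -0.90 where all probe sets had -0.14. Of the 17 probe sets called over the whole array 14 were lower, and of the 2 called after quantile normalization or centring 0 were lower.

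Genes that build the complex or work beside it were measured on the same arrays. The assembly factors sicily, Egm and CIA30 did not overlap between treatments and were lower with JH III, at low signal. Among all probe sets tested 15.3% were lower without overlap. Not every assembly factor went this way. Of those found later by synonym, CG11722 (NDUFAF4) had 0.21 with overlap and CG5569 (NDUFAF3) had -1.05 without. Sicily, the fly NDUFAF6, had 117 and 188 on the JH III arrays, against 829 and 488 on the acetone arrays (-1.63 ± 0.64 SE, limma adjusted p = 0.538). Egm, the fly relative of the assembly factor ACAD9, had 143 and 76.7 on the JH III arrays, against 634 and 432 on the acetone arrays (-1.68 ± 0.70 SE, limma adjusted p = 0.599). In both the JH III arrays were under the control level, and for CIA30, the fly NDUFAF1, 1 JH III array was (-0.77 ± 0.69 SE). Ecsit and the mitochondrially encoded subunits were not analysed here.

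Of 7 other enzymes that hand electrons to ubiquinone 4 were measured. All 4 had a difference below 0, where 43.9% of all probe sets and 72.9% of the brightest 10% did. SdhB, which holds the iron-sulphur clusters of complex II, was the only 1 of the 4 that passed the adjusted test. It was lower with JH III (-1.77 ± 0.36 SE, limma adjusted p = 0.0135), with 2558 and 4063 on the JH III arrays, against 13980 and 9005 on the acetone arrays. This call was lost in 10 of 15 alternatives, among them quantile normalization (-1.42, limma adjusted p = 0.292) and median centring (-2.01, limma adjusted p = 0.206). These 15 include a block with crossed replicate numbers, added after seeing the data. With single arrays left out the SdhB difference lay between -2.10 and -1.45. It was below 0 in all 15, but several of them change only the test, the filter or the probe sets of the members. In those the SdhB difference could not move. SdhD (-0.73), SdhC (-0.47) and the dihydroorotate dehydrogenase Dhod (-0.18) did not pass. Among 35 genes of complexes III and IV and ATP synthase, dim paralogs included, 6 were never above the control level and 29 passed the filter. Of the 35, 28 had a difference below 0, 17 were lower and 3 higher without overlap, and the median was -0.49. The 17 are 48.6% of the list, against 15.3% of all probe sets and 34.9% of the brightest 10%. By limma 0 of the 29 passed the adjusted test and 8 (27.6%) were lower at an unadjusted p under 0.05, against 3.75% of all probe sets and 13.9% of the brightest 10%. The smallest p were those of ATPsynO (-1.04), COX5B (-1.06), ATPsyndelta (-0.94) and COX5A (-0.81), with limma adjusted p of 0.476 to 0.636. Whether complex I differs from these complexes was not tested.

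Of 16 measured muscle genes 13 had a difference below 0, with a median of -0.51, and 2 were lower without overlap (12.5%, against 15.3% of all probe sets and 34.9% of the brightest 10%). By limma 0 of the muscle genes passed the adjusted test and 4 (25%) were lower at an unadjusted p under 0.05, against 3.75% of all probe sets and 13.9% of the brightest 10%. Their summed signal was 33444 and 47653 on the JH III arrays, against 73130 and 42472 on the acetone arrays, so that the treatments overlapped, which those of the subunits did not. All 16 were above the control level on at least 1 array. For 7 fat body genes the median was -0.27 and the summed signal 65394 and 109348 on the JH III arrays, against 112344 and 91732 on the acetone arrays. For 11 female germ line genes the median was 0.27 and the sum 7907 and 9278 on the JH III arrays, against 7293 and 6607 on the acetone arrays, with bam not above the control level on any array. The part of these tissues in the subunit levels was not tested.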

How the data were processed

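Whole-female RNA was hybridised to 4 Affymetrix DrosGenome1 arrays, 2 per treatment; the titles gave the groups and replicate numbers. The authors deposited a linear intensity for every probe set on each array. The 2% trimmed mean was 500.1 on every array, the form of signals scaled to a shared target; the summarising software was not named in the sources used here. Extraction was with Trizol and chloroform and labelling with biotin, per the labels' protocols. Other settings (chip lot, fluidics module) came from the 4 deposited array description files, which hold no expression values.

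Of 14010 probe sets, 44 controls were set aside; 12443 of the others had 1 symbol in the platform annotation, 327 several and 1196 none. The 31 members matched RefSeq by Entrez number with their symbols unchanged. No coordinates are given, because no genome build is named for the arrays.

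Values were kept as the authors scaled them and tested as log2(signal + 82.8), the 25th percentile of all values, after the lowest 25% of probe sets by mean were left out; all 31 members passed this filter. The test was limma 3.58.1 in R 4.3.3 (lmFit, eBayes with a trend, two-sided), JH III minus acetone, adjusted by Benjamini-Hochberg over 10474 probe sets at 0.05. Residual degrees of freedom were 2, and 67.4 after moderation, so most of the spread was borrowed from other probe sets. The script was tested on simulated arrays. On each array the control level is the 95th percentile over 23 controls that were not spiked in. The number of arrays limits the precision. The labels do not say whether samples came from separate cultures, so p-values measure the spread between these samples only.

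The members and lists were chosen with earlier results of these data known. Core subunits, paralogs, accessory subunits with an unadjusted p under 0.05, the brightest and the dimmest were named, with up to 4 genes of smallest p from each other list; other genes were named after their values were seen. Alternatives were other pseudocounts, scalings and filters, no trend, the methods' t-test, a replicate block, the mean of a gene's probe sets, other classes and leaving out each array. Tables and figures were made in Python 3.11.15 (pandas 2.3.3, matplotlib 3.10.9, with numpy 2.4.6).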

Additional observations from a re-analysis of the deposited data

How the results depend on the processing

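The accessory median stayed below 0 under all 15 alternatives (-0.90 to -0.33, the ends being median centring and quantile normalization), and so did the core median. Without a trend, with other filters, by the methods' t-test or with a replicate block neither median could move. Those fits change only the test or the probe sets tested, so they say nothing about the sign. Leaving out single arrays gave -0.80 to -0.54 for the accessory median. The core median, -0.64, moved more: it was -0.30 without JH III replicate 1, -0.98 without JH III replicate 2, -1.002 without acetone replicate 2 and -0.25 after quantile normalization. The core minus accessory difference changed sign between -0.29 and 0.23 as single arrays were left out. The number of members lower at an unadjusted p under 0.05, 8, was 2 without a trend, 3 by the methods' t-test, 4 after quantile normalization, 16 after median centring and 4 to 12 with single arrays left out (4 without JH III replicate 1 or acetone replicate 1, 12 without acetone replicate 2). The number called over all genes, 17, was 0 without a trend or by the methods' t-test, 2 after quantile normalization, median centring, no filter or a filter of 50%, and 3 to 36 with single arrays left out (3 without JH III replicate 1 or acetone replicate 1, 36 without acetone replicate 2). Members called, 0, were 0 to 1 with single arrays left out, the 1 being ND-75 (-1.74) without acetone replicate 2. At an unadjusted limma p under 0.05, 3.75% of all probe sets were lower in the main test. This share was 2.00% without a trend, 3.42% after quantile normalization and 5.93% after median centring, and 2.32% by the methods' t-test. The rise to 16 members after median centring thus went with a higher share over all probe sets. With the replicate number as a block 2 probe sets passed over all genes and 0 members did. Then 4 members were lower at an unadjusted limma p under 0.05, where 2.55% of all probe sets were. The same-numbered arrays deviated with a correlation of -0.11 over 10474 probe sets. With crossed numbers, added after seeing the data, 109 probe sets passed, 4 of them members. In that fit 17 members were lower at an unadjusted limma p under 0.05, where 5.58% of all probe sets were. With single arrays left out ND-51 lay between -1.002 and 0.14 (above 0 without JH III replicate 1, 0.01, or acetone replicate 1), ND-24L between -0.997 and 0.24 (above 0 without JH III replicate 1), ND-B14.5AL between -0.57 and 0.34 (above 0 without JH III replicate 1 or acetone replicate 2) and ND-51L1 between -0.32 and 0.11 (above 0 without acetone replicate 2). The cause was not tested. ND-MLRQ was not measured, so leaving it out was not run. With paralogs counted in the class of the subunit they are named after, the core median was -0.38. Signals near the control level limit what can be said of the paralogs and assembly factors.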

Other observations

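Further complex I genes on the arrays have symbols of another form and were found through NDUF names among their RefSeq synonyms, after the other values were seen. NP15.6, the fly NDUFB11 of the membrane arm, had 1699 and 3257 on the JH III arrays, against 6417 and 3161 on the acetone arrays, with a difference of -0.91 ± 0.36 on the log2 scale (SE, limma adjusted p = 0.558). NdufA3 had 1910 and 2651 on the JH III arrays, against 3514 and 4604 on the acetone arrays (-0.81 ± 0.35 SE, limma adjusted p = 0.635). NdufV3 had 4048 and 5471 on the JH III arrays, against 6987 and 7014 on the acetone arrays (-0.56 ± 0.35 SE, limma adjusted p = 0.767). NdufA3 and NdufV3 did not overlap between treatments, and NP15.6 did. The differences of these 3 subunits lie within the range of the 26 described above. The assembly factor genes CG5569 (NDUFAF3) and CG11722 (NDUFAF4) had differences of -1.05 ± 0.73 and 0.21 ± 0.43 (SE, limma adjusted p = 0.773 and 0.936). CG5569 had 182 and 108 on the JH III arrays, both under the control level there (369 and 240). On the acetone arrays it had 200 and 684, where the control level was 139 and 295. Its value on acetone replicate 1 was thus close to that on JH III replicate 1.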
